A study of Rattus norvegicus with 15 samples.

Results

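The levels of 10 rat genes of the tumor necrosis factor (TNF) superfamily were read from whole-retina RNA-Seq libraries. They are the 5 ligands *Tnf*, *Faslg*, *Tnfsf10*, *Lta* and *Ltb* and the 5 receptors *Tnfrsf1a*, *Tnfrsf1b*, *Fas*, *Cd40* and *Tnfrsf12a*. They were chosen by name as ligands and receptors of this family, and each is 1 of 20375 genes listed. The ligands of the family are mostly membrane proteins that can be shed, and they bind receptors whose cytoplasmic parts recruit adaptor proteins. Receptors with a death domain, such as TNF receptor 1 and Fas, can start caspase-dependent cell death, and most receptors of the family also switch on NF-κB. In the retina these molecules are known from microglia, infiltrating leukocytes, Müller glia and dying photoreceptors.

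The libraries came from wild-type Sprague-Dawley rats at post-natal week 12, collected on day 31, and fell into 5 groups of 3 libraries. Rats of the no-treatment (NT) group were healthy and had neither sodium iodate (NaIO3) nor cells. The sham, MSC, MSCEPO and DPSC groups all had NaIO3 at 40 mg/kg, an oxidant that damages the retinal pigment epithelium and then the photoreceptors. The sham rats had an intravitreal injection of vehicle, the MSC rats had human Wharton's jelly mesenchymal stem cells, and the MSCEPO rats had cells of this kind carrying a lentiviral human erythropoietin gene, each injected before the NaIO3. The DPSC group is named here as its label gives it, since the study's methods do not describe it. Per the labels, rats with human cells were also given dexamethasone at 2 mg/kg and cyclosporin at 10 mg/kg per day, so cells and immunosuppression cannot be told apart in any comparison of these groups with NT or sham. The reads were assigned to rat genes alone, and transcripts of the human grafts were not analysed here.

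The values come from the authors' regularized log (rlog) transformation, a log2 scale corrected for library size on which each library is shrunken toward the mean of the gene. Without counts the sequencing depth cannot be read from the files, and a difference on this scale understates the change of a gene with few reads. The scale does not correct for gene length, so levels are compared between libraries and not between genes. A gene was tested when its mean rlog value over the 15 libraries was at least 3.32, the log2 of 10. Of the 10 members, 8 passed and *Tnf* and *Lta* did not. Counts out of 10 members below include both of these genes, while shares over all tested genes do not. *Ltb* passed through its means of 4.27 in MSC and 3.99 in MSCEPO, since its means were 3.26 in NT, 3.35 in sham and 3.32 in DPSC. A member was called when limma gave an adjusted p under 0.05 over the 15424 genes tested. The labels do not say that each library is a separate rat, so p-values measure the spread between these libraries.

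MSC replicate 1 and MSCEPO replicate 3 stood apart from their groups, with array weights of 0.21 and 0.083. The highest weight was that of MSC replicate 2, 5.28. The rod marker list, which includes rhodopsin, had a mean rlog value between 16.18 and 16.26 in the NT libraries, so the retina label held. Lens markers ran 3.74 above the NT mean in MSCEPO replicate 3 and 5.49 and 4.75 above it in DPSC replicates 1 and 3. Neutrophil markers stayed between 0.90 and 1.18 in every library. Library medians over the tested genes lay between 8.63 and 8.82.

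At day 31 most of the members called were receptors. *Tnfrsf1a*, the main receptor for soluble TNF, was called higher than in NT in all 4 NaIO3 groups. Its call in sham was lost with any single sham or NT library left out. Its call in DPSC was lost without NT replicate 3 or DPSC replicate 2. *Fas*, the death receptor bound by Fas ligand, and *Tnfrsf12a*, the receptor for the cytokine TWEAK that is known from injured tissue, rose in the MSC and MSCEPO groups. In the fit of all 15 libraries 6 of the 8 tested members were called in MSC over NT, where 11.0% of all tested genes were called higher. The ligand among them, *Ltb*, had passed the level filter through the groups where it was high, and with the filter applied to every library 5 of 7 members were called. No tested member was called between a cell group and sham, or between cell groups. *Tnf* itself ranged from 2.33 to 2.63 over the 15 libraries and was not tested in the main fit. In the limma fit with no filter its difference of 0.20 in MSC over NT had an adjusted p of 0.0405.

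The start regions of the members are shown because several members changed together. RefSeq gave the 250 bases before the annotated start for 9 of the 10 members in rat build GRCr8, which is a later build than the Rnor_6.0 build used by the authors. *Cd40* had no entry. *Lta*, *Tnf* and *Ltb* lie side by side on chromosome 20 in the class III part of the major histocompatibility complex. Capitals mark matches on either strand to 1 of 3 patterns, the NF-κB consensus, the TATA box TATAAA, and a pair of GAAA half-sites 2 bases apart as in interferon-stimulated response elements. Overlapping matches in *Lta* and *Fas* were merged into one run of capitals. *Lta*, *Ltb* and *Fas* held the NF-κB consensus, *Lta* and *Tnf* the TATA box, and *Tnfrsf1b* the GAAA pair. *Tnfrsf1a*, which was called most often, held none of them.
Tnf, chr20:3626435-3626684, plus strand: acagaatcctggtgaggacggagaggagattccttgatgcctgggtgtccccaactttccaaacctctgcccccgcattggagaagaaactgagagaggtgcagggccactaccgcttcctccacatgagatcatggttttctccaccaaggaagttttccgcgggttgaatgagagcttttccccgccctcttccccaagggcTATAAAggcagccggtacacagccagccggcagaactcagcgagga
Lta, chr20:3623277-3623526, plus strand: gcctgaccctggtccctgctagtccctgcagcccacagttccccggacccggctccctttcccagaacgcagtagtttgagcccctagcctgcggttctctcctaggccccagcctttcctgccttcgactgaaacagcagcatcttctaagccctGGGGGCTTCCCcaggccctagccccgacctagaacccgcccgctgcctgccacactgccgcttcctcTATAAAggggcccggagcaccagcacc
Ltb, chr20:3634055-3634304, minus strand: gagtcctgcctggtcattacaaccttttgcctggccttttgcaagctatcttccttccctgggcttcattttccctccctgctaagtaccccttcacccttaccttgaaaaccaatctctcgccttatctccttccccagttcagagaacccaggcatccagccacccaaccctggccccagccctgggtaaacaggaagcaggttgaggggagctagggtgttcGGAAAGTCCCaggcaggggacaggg
Fas, chr1:241211905-241212154, plus strand: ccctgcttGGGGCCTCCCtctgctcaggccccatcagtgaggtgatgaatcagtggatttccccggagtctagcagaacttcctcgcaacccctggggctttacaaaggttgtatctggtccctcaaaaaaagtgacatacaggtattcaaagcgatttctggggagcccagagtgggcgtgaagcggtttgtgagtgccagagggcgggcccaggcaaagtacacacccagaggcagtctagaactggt
Tnfrsf1b, chr5:162387412-162387661, minus strand: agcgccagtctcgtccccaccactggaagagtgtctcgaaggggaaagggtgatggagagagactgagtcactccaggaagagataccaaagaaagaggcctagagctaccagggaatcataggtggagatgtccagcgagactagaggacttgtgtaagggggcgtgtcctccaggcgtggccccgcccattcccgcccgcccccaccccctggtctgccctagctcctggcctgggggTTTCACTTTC
Tnfrsf1a, chr4:159836869-159837118, plus strand: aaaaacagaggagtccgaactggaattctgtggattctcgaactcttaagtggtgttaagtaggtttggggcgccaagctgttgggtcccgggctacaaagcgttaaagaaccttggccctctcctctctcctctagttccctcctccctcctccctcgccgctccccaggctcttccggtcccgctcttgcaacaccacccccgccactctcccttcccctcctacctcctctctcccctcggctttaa

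The NF-κB consensus was found in 3 of the 9 members with a sequence, against 6.33% of all 33469 promoters of the table cut to the same length. The TATA box was found in 3 of 9, *Faslg* being the third, against 12.9% of all promoters. The GAAA pair was found in 1 of 9, against 3.41%. In *Ltb* the NF-κB match lay 25 to 16 bases before the start, and in *Lta* the matches lay 94 to 84 bases before it. In *Fas* the match lay 242 to 233 bases before the start. These matches are a description of letters in these windows. *Tnfsf10* and *Tnfrsf12a* had no match.

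**Figure D1:**
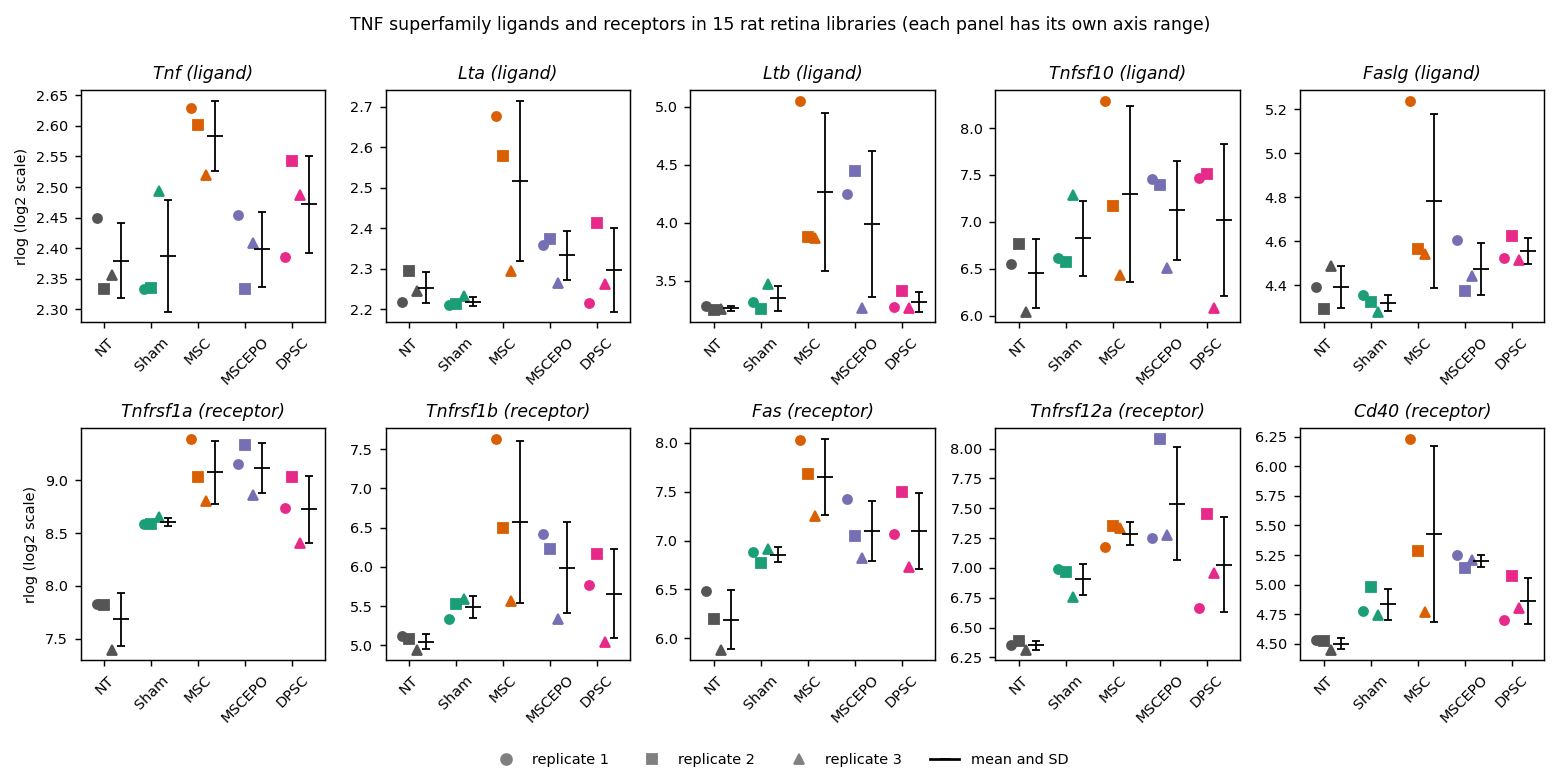
Each panel plots 1 gene, with the rlog value (log2 scale) on the vertical axis and the 5 groups on the horizontal axis. Symbols are the 3 replicates, and the bar beside them is the mean with its SD. MSC replicate 1 was the highest of the 15 libraries for 9 of the 10 genes, and *Tnfrsf12a* was highest in MSCEPO replicate 2.

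The sham group gives the effect of NaIO3 and vehicle without cells. Among the receptors, *Tnfrsf1a* (ENSRNOG00000031312) had rlog values of 7.83, 7.82 and 7.39 in the NT libraries and 8.59, 8.59 and 8.65 in the sham libraries. The sham libraries were tightly grouped and lay above all NT libraries. The difference was 0.93 (SE 0.19, 95% interval 0.51 to 1.35), a 1.90-fold rise with an adjusted p of 0.0466. *Tnfrsf1a* was the 1 member called of 8 tested, where 0.558% of all tested genes were called higher. The adjusted p passed the threshold narrowly. It was lost with any single sham or NT library left out, at 0.113 to 0.223, and the adjusted p was 0.0574 with no filter and 0.0585 with quantile normalization.

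The other receptors had higher means in sham than in NT, and their adjusted p did not pass. *Fas* (ENSRNOG00000019142) measured 6.49, 6.20 and 5.88 in NT and 6.88, 6.77 and 6.91 in sham. *Tnfrsf12a* (ENSRNOG00000003546) measured 6.36, 6.39 and 6.31 in NT and 6.99, 6.96 and 6.76 in sham. For both genes each sham library was above each NT library. The differences were 0.66 (SE 0.24, adjusted p = 0.258) for *Fas* and 0.55 (SE 0.22, adjusted p = 0.320) for *Tnfrsf12a*. *Cd40*, the costimulatory receptor of antigen-presenting cells, and *Tnfrsf1b*, the TNF receptor found mainly on leukocytes, differed by 0.33 (adjusted p = 0.718) and 0.44 (adjusted p = 0.791). In all, 5 of 10 members did not overlap between the groups with sham higher, where 16.6% of all tested genes did so, and these 5 were the receptors.

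*Ltb* and *Faslg* overlapped their NT levels in the sham group. *Ltb*, which encodes the membrane anchor of the lymphotoxin heterotrimer, measured 3.28, 3.25 and 3.26 in NT and 3.32, 3.26 and 3.47 in sham. *Faslg*, the ligand of Fas made mainly by cytotoxic lymphocytes, measured 4.39, 4.29 and 4.49 in NT and 4.35, 4.32 and 4.28 in sham. The 95% intervals of sham minus NT ran from -0.58 to 0.75 for *Ltb* and from -0.40 to 0.26 for *Faslg*. *Tnfsf10*, which encodes the death ligand TRAIL, differed by 0.37 with an interval from -0.66 to 1.41, too wide to place it. Markers of macrophages and microglia were 0.81 to 1.59 above the NT mean in the 3 sham libraries while 0 of the 12 were called, and the rod list was 0.63 to 0.92 below with 0 of 6 called. Müller glia markers were 0.61 to 0.88 above with 1 of 6 called higher, and endothelial markers 0.40 to 0.57 above with 0 of 4 called. Pigment epithelium markers were 0.84 to 1.35 below with 0 of 5 called. In whole-retina RNA a lower number of cells of a type and less RNA per cell cannot be told apart, and the part of these cell types in the member differences was not tested.

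**Figure D2:**
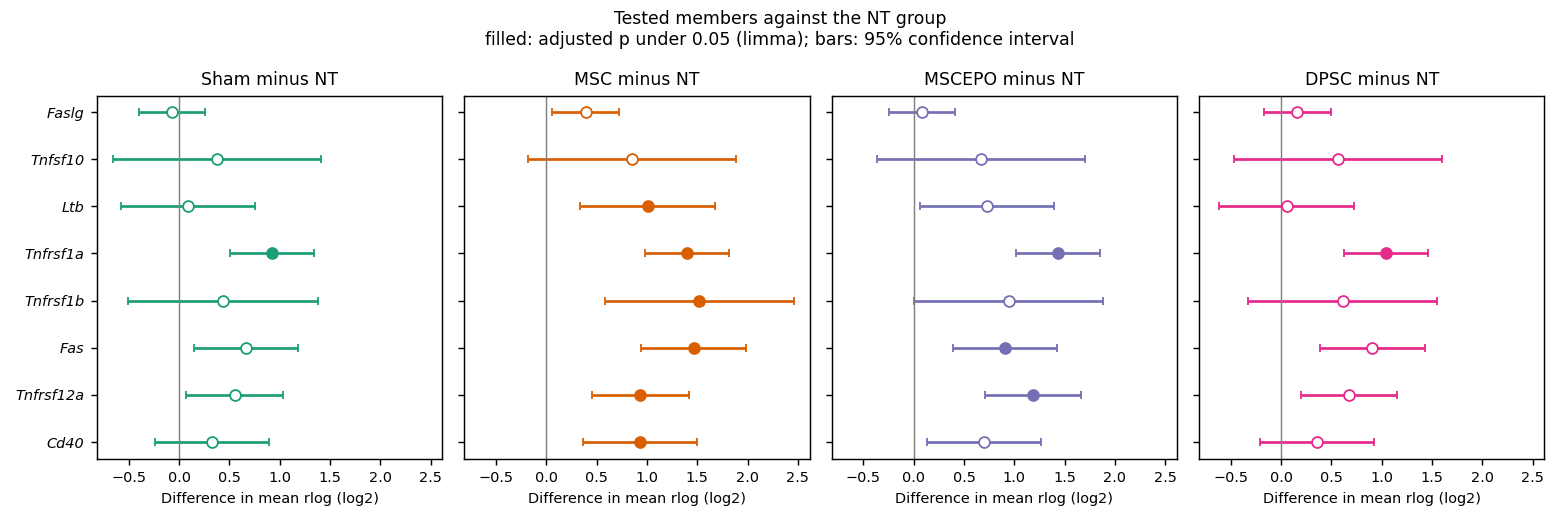
Points are the difference in mean rlog value (log2) of each NaIO3 group minus NT for the 8 tested members, and bars are 95% confidence intervals. Filled points passed an adjusted p under 0.05. *Tnfrsf1a* is filled in all 4 panels, and the MSC panel holds 6 filled points.

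The MSC group had more members called over NT than any other group in the fit of all libraries. MSC and MSCEPO had equal counts in 4 alternatives. They had 7 each with array weights, where 7618 of all tested genes were called in MSC and 6066 in MSCEPO. They had 6 each without MSC replicate 1 and MSCEPO replicate 3 (3439 genes in MSC and 4235 in MSCEPO). With the 2 groups alone they had 3 each (2798 and 996 genes), as without NT replicate 1 (1533 and 1010 genes). The equal member counts came with unequal counts over all tested genes, so they do not show that the groups were alike. Of the 8 tested members, 6 rose in the fit of all libraries, where 11.0% of all tested genes were called higher, and 0 fell, where 6.37% were called lower. *Ltb*, 1 of the 6, had passed the level filter through MSC and MSCEPO. With the filter in every library 5 of 7 members were called (2632 genes). With quantile normalization the split over all tested genes turned from 1694 higher and 983 lower to 1297 higher and 1616 lower, while all 8 member differences stayed above 0. *Tnfrsf1a* measured 9.40, 9.03 and 8.80 in the MSC libraries, all above NT, and the difference was 1.40 (SE 0.19), a 2.63-fold rise with an adjusted p of 0.00112. *Fas* measured 8.03, 7.68 and 7.25 in MSC and did not overlap NT either. Its difference was 1.46 (SE 0.24), a 2.76-fold rise (adjusted p = 0.00237). *Tnfrsf12a* measured 7.17, 7.35 and 7.34, with little spread, and was 0.93 higher (SE 0.22, adjusted p = 0.0131). Both *Tnfrsf1a* and *Fas* kept an adjusted p under 0.05 in each of the 16 alternatives run, and *Tnfrsf12a* lost it with quantile normalization alone (0.0545). When a fold threshold of 2 was added, *Tnfrsf12a* and *Cd40* were no longer called, and 1033 of all tested genes were.

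A wide spread within the MSC group was seen for *Tnfrsf1b*, *Cd40* and *Ltb*. *Tnfrsf1b* (ENSRNOG00000016575) measured 7.63, 6.50 and 5.57 in MSC against 5.11, 5.08 and 4.94 in NT. *Cd40* (ENSRNOG00000018488) measured 6.23, 5.29 and 4.77 in MSC against 4.53, 4.53 and 4.45. *Ltb* (ENSRNOG00000058566) measured 5.05, 3.88 and 3.87 in MSC. In each gene replicate 1 was well above the other MSC libraries, while all 3 libraries stayed above NT. The differences were 1.52 for *Tnfrsf1b* (SE 0.43, adjusted p = 0.0307), 0.93 for *Cd40* (SE 0.26, adjusted p = 0.0292) and 1.01 for *Ltb* (SE 0.31, adjusted p = 0.0413). These calls did not hold when some single libraries were left out. All 3 were lost without any one of the NT replicates, where the genes called fell from 2677 to 1533, 1487 and 1350. *Cd40* kept its call without MSC replicate 1 and *Ltb* without MSC replicate 2. Without MSC replicate 1, *Ltb* (difference 0.61, adjusted p = 0.144) and *Tnfrsf1b* (0.99, adjusted p = 0.109) were lost, and without MSC replicate 2, *Tnfrsf1b* and *Cd40* were lost. *Cd40* was also lost with quantile normalization (0.56, adjusted p = 0.0968), and all 3 were lost in a fit of the 2 groups alone. *Ltb* was lost with no filter and in the 12 libraries without DPSC as well.

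Of the other ligands, *Faslg* measured 5.24, 4.57 and 4.54 in MSC, a difference from NT of 0.39 with an adjusted p of 0.0997. Without MSC replicate 3 it was called (adjusted p = 0.0441), and with quantile normalization its difference was 0.04. *Tnfsf10* measured 8.29, 7.17 and 6.43 in MSC against 6.55, 6.76 and 6.04 in NT, so the groups overlapped and the difference of 0.85 had an adjusted p of 0.257. The ligands below the level filter moved little on this scale. *Tnf*, the prototype inflammatory cytokine of the family, measured 2.45, 2.33 and 2.36 in NT and 2.63, 2.60 and 2.52 in MSC. *Lta*, which forms the soluble lymphotoxin homotrimer, measured 2.22, 2.29 and 2.25 in NT and 2.68, 2.58 and 2.30 in MSC. Each MSC library was above each NT library in both genes, by small amounts. When all listed genes were tested, the difference of 0.20 for *Tnf* had an adjusted p of 0.0405 and that of 0.26 for *Lta* had 0.0515. In that limma fit 2458 of the 20375 listed genes were called. Of the 10 members, 9 did not overlap between MSC and NT, where 22.9% of all tested genes were higher without overlap. These 9 include *Tnf* and *Lta*, which were not among the tested genes.

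Markers of several leukocyte types were also above NT in the MSC libraries. The 11 T and NK cell markers were 2.52, 1.14 and 0.53 above the NT mean in MSC replicates 1 to 3, with 8 of the 9 tested called. The 5 B and plasma cell markers listed were 4.03, 2.27 and 1.35 above it, with all 4 tested called, and the 12 macrophage and microglia markers were 3.11, 2.11 and 1.70 above it, with 11 called. *Ptprc*, the pan-leukocyte gene, was 5.47, 3.80 and 2.91 above it. In each list replicate 1 was highest and replicate 3 lowest. Among the members replicate 1 was highest of its group in 9 of 10 genes and replicate 3 lowest in 9, *Tnfrsf12a* being the exception. Over all tested genes replicate 1 was highest of its group in 45.9% and replicate 3 lowest in 39.0%. The rods were 1.47 to 1.59 below NT in the 3 MSC libraries, with 6 of 6 called lower. Müller glia markers were 0.75, 1.18 and 1.03 above NT, with 4 of 6 called higher and 1 lower, and pigment epithelium markers were 0.36, 1.35 and 2.55 below, with 2 of 5 called lower. The part of these cells in the member differences was not tested.

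**Figure D3:**
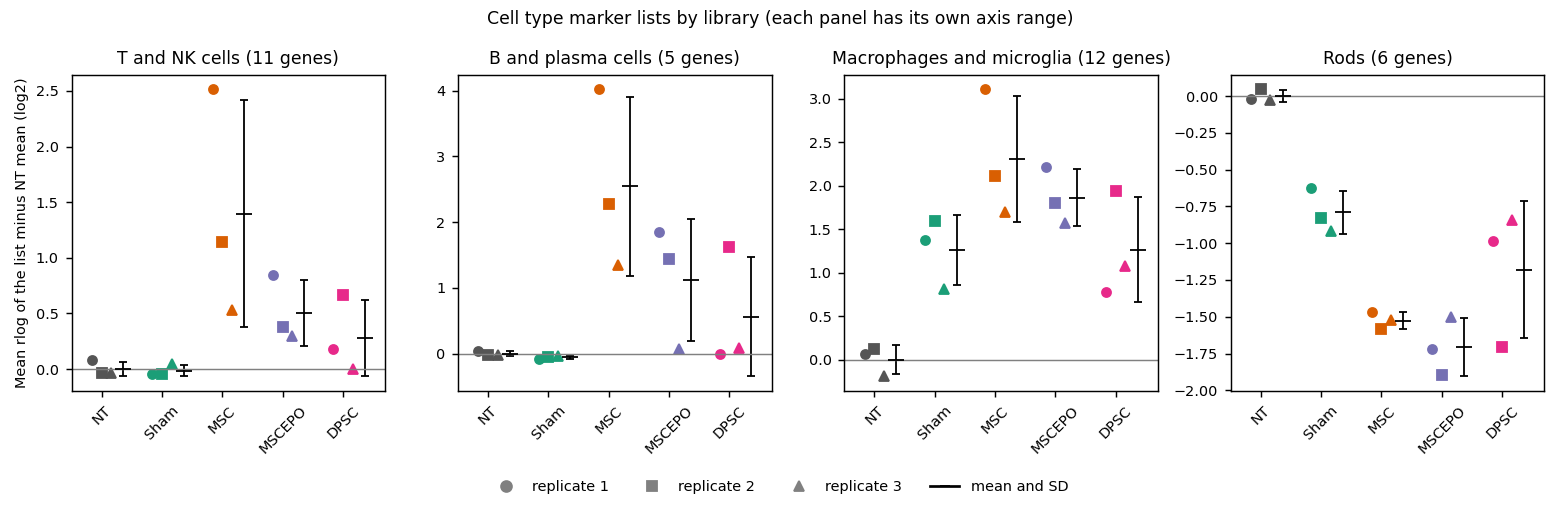
Each panel plots the mean rlog value of a marker list minus its NT mean (log2) for the 15 libraries, by group, with the group mean and SD beside the points. MSC replicate 1 was highest in the 3 leukocyte panels, and the rod list lay below NT in all 12 NaIO3 libraries.

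In the MSCEPO group 3 of the 8 tested members rose over NT, where 5.83% of all tested genes were called higher, and 0 fell, where 5.81% were called lower. All 3 were receptors. *Tnfrsf1a* measured 9.15, 9.34 and 8.87, a difference of 1.44 (SE 0.19), or 2.71-fold (adjusted p = 0.000718). *Tnfrsf12a* measured 7.25, 8.08 and 7.27, with replicate 2 the highest value of this gene in the series. Its difference was 1.18 (SE 0.22), or 2.27-fold (adjusted p = 0.00514). Both stayed called in each of the 16 alternatives. *Fas* measured 7.42, 7.04 and 6.82 and was 0.90 higher (SE 0.24, adjusted p = 0.0288). *Fas* lost its call without NT replicate 2 or 3 or without MSCEPO replicate 1 or 2, with an adjusted p of up to 0.127. It was also lost in a fit of the 2 groups alone and when a fold threshold of 2 was added (551 genes called).

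Among the remaining members of the MSCEPO group, *Ltb*, *Tnfrsf1b* and *Tnfsf10* were lowest in replicate 3 by a wide margin. *Cd40* measured 5.25, 5.14 and 5.21, tightly grouped and above NT, and its difference of 0.70 (SE 0.26) had an adjusted p of 0.108. *Ltb* measured 4.25, 4.45 and 3.27, so that replicate 3 lay at the NT level and the other replicates well above it. Without MSCEPO replicate 3 the difference of *Ltb* rose from 0.73 (adjusted p = 0.150) to 1.09 (adjusted p = 0.0175), and 2998 of all tested genes were called. *Ltb* had passed the level filter through MSC and MSCEPO. *Tnfrsf1b* measured 6.41, 6.22 and 5.33, with replicate 3 again lowest, and differed by 0.94 (adjusted p = 0.184). *Faslg* measured 4.60, 4.37 and 4.44 and overlapped NT, and the sign of its difference of 0.08 turned to -0.15 with quantile normalization. *Tnfsf10* measured 7.46, 7.40 and 6.51 and overlapped NT. *Tnf* measured 2.45, 2.33 and 2.41 and *Lta* 2.36, 2.37 and 2.27, with both genes overlapping NT. Of the 10 members, 5 did not overlap with MSCEPO higher, where 16.5% of all tested genes did so. B and plasma cell markers were 1.86, 1.44 and 0.07 above NT in replicates 1 to 3 with 0 of 4 called, and T and NK cell markers 0.29 to 0.85 above with 0 of 9 called. Macrophage and microglia markers were 2.22, 1.80 and 1.57 above, with 11 of 12 called. The rods were up to 1.90 below NT with 6 of 6 called lower, and Müller glia markers 0.91 to 1.17 above with 3 of 6 called higher. The part of these cells was not tested.

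In the DPSC group *Tnfrsf1a* was the 1 tested member of 8 that rose over NT, where 1.43% of all tested genes were called higher. It measured 8.74, 9.04 and 8.40, above all NT libraries, a difference of 1.04 (SE 0.19), or 2.06-fold (adjusted p = 0.0143). Without NT replicate 3 or DPSC replicate 2 this call was lost (adjusted p up to 0.0780). *Fas* measured 7.07, 7.50 and 6.73 and did not overlap NT, with a difference of 0.91 (SE 0.24) and an adjusted p of 0.0646. It was called without DPSC replicate 3 (adjusted p = 0.0417), with the replicate block (0.0266) and with array weights (0.00724), and in none of the other alternatives. *Tnfrsf12a* measured 6.67, 7.45 and 6.96 and was 0.67 higher (adjusted p = 0.131). *Ltb* measured 3.27, 3.41 and 3.27, about as in NT, and its difference of 0.05 had an interval from -0.61 to 0.72. With quantile normalization that difference was -0.01. Of the 10 members, 5 did not overlap with DPSC higher, where 16.0% of all tested genes did so.

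DPSC replicate 2 was the highest of its group in 10 of 10 members, while it was the highest in 37.8% of all tested genes. *Tnfrsf1b*, for example, measured 5.77, 6.16 and 5.04, and *Cd40* 4.70, 5.08 and 4.80. *Faslg* measured 4.52, 4.62 and 4.52, *Tnfsf10* 7.46, 7.51 and 6.08, *Tnf* 2.39, 2.54 and 2.49 and *Lta* 2.22, 2.41 and 2.26. The same library had the highest leukocyte markers of the group, with T and NK cells 0.66 and B and plasma cells 1.61 above the NT mean, against at most 0.18 and 0.09 in the other DPSC libraries. Its rod markers were lowest of the group, 1.71 below NT, and its lens markers were 0.76 below the NT mean. In the group as a whole 5 of 6 rod markers were called lower than NT, and 2 of 12 macrophage and microglia markers and 2 of 6 Müller glia markers were called higher. The part of these cells was not tested.

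The sham group is the control for NaIO3 in the comparisons with cells. No tested member of the 8 passed in MSC against sham, where 0% of all tested genes were called in limma. At an unadjusted p under 0.05, 6 tested members and 9.49% of all tested genes were higher in MSC. *Ltb*, which passed the level filter through MSC and MSCEPO, was 1 of these members. The largest difference was that of *Tnfrsf1b*, 1.08 (interval 0.14 to 2.02, adjusted p = 0.295), with MSC replicate 3 (5.57) below the highest sham library (5.60). *Ltb* differed by 0.92 (interval 0.25 to 1.59, adjusted p = 0.200) and *Fas* by 0.80 (interval 0.28 to 1.32, adjusted p = 0.162), and neither overlapped sham. *Faslg* also did not overlap, with a difference of 0.46 (adjusted p = 0.192). Of the 10 members, 7 were higher in MSC without overlap, where 13.1% of all tested genes were. These 7 include *Tnf* and *Lta*, which were not among the tested genes.

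The outcome of MSC against sham turned on MSC replicate 3. Without it, *Tnfrsf1b* (adjusted p = 0.0414), *Fas* (0.0431) and *Cd40* (0.0341) were called, and 698 of all tested genes were. Leaving out each of the other MSC and sham libraries in turn gave 0 members called. With array weights, which give less weight to libraries far from their group, 6 members and 2796 of the 15424 tested genes were called. The weights of MSC replicates 1 to 3 were 0.21, 5.28 and 0.85, so the weighted MSC mean rested mostly on replicate 2. *Tnfsf10* had a difference of 0.47 that rested on MSC replicate 1 and was -0.023 without it.

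In MSCEPO against sham 0 of 8 tested members were called, where 0.0259% of all tested genes were called in either direction. At an unadjusted p under 0.05, 2 members and 3.19% of all tested genes were higher. These were *Tnfrsf1a*, 0.51 higher (interval 0.09 to 0.93, adjusted p = 0.549), and *Tnfrsf12a*, 0.63 higher (interval 0.15 to 1.11, adjusted p = 0.502), both without overlap. *Ltb*, which passed the level filter through MSC and MSCEPO, was 0.64 higher with an interval from -0.03 to 1.31. Without both MSC replicate 1 and MSCEPO replicate 3, an alternative chosen after the data were seen, *Ltb* was the 1 member called. The MSCEPO library left out held the lowest *Ltb* value of its group, 3.27. In that fit 32 of all tested genes were called. Of the 10 members, 5 were higher in MSCEPO without overlap, where 7.44% of all tested genes were. These 5 include *Lta*, which was not among the tested genes. In DPSC against sham 0 of 8 were called by limma, where 0.0195% of all tested genes were, and 0 had an unadjusted p under 0.05, where 2.37% did. The differences of the 8 ran from -0.03 for *Ltb* to 0.24 for *Fas*. The interval of *Fas* ran from -0.28 to 0.76 and that of *Tnfrsf1a* from -0.30 to 0.54. *Faslg* was the 1 member of 10 without overlap, where 4.75% of all tested genes were higher without overlap.

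**Figure D4:**
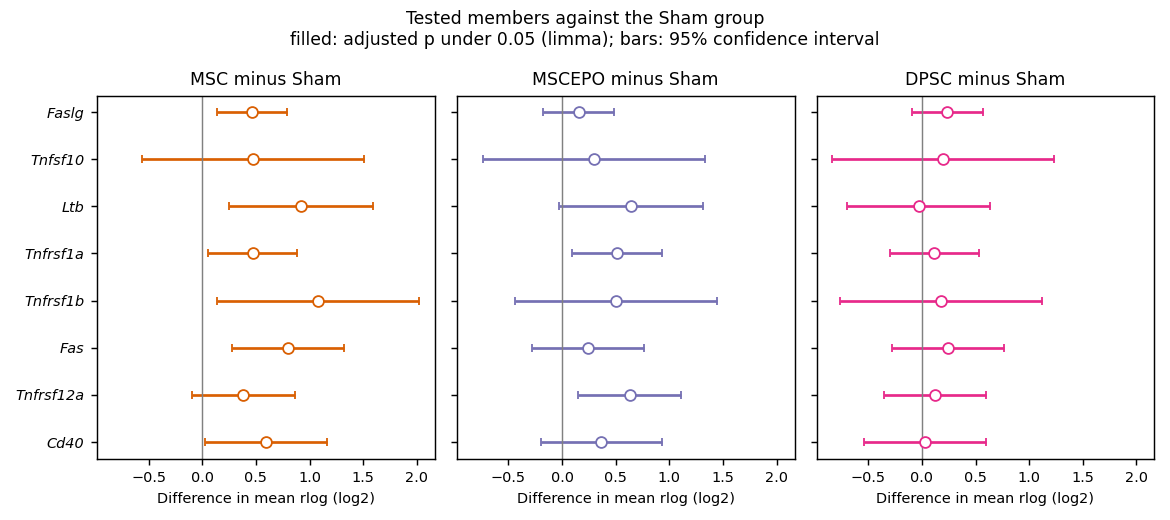
Points are the difference in mean rlog value (log2) of each cell group minus sham for the 8 tested members, and bars are 95% confidence intervals. Open points did not pass an adjusted p under 0.05, and every point is open. The intervals of 6 members lie above 0 for MSC, those of *Tnfrsf1a* and *Tnfrsf12a* for MSCEPO, and 0 for DPSC.

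Between the cell groups 0 of 8 tested members were called in each of the 3 comparisons by limma, where 0% of all tested genes were. For MSC against MSCEPO, *Fas* was 0.56 higher in MSC (interval 0.04 to 1.08, adjusted p = 0.754) and was the 1 member with an unadjusted p under 0.05, where 2.83% of all tested genes were higher by that measure. *Tnfrsf1a* differed by -0.04 (interval -0.46 to 0.38) and *Tnfrsf12a* by -0.25 (interval -0.73 to 0.23). *Tnf* was the 1 member whose groups did not overlap, where 2.18% of all tested genes were higher in MSC without overlap. *Tnf* was below the level filter and not among those tested genes. For DPSC against MSC all 8 tested differences were below 0, and *Ltb*, *Fas* and *Cd40* had an unadjusted p under 0.05, where 7.02% of all tested genes did. In both comparisons with DPSC, *Ltb* had passed the level filter through its levels in MSC and MSCEPO. The difference of *Ltb* was -0.95, with an interval from -1.62 to -0.28 and an adjusted p of 0.587, and its libraries did not overlap those of MSC, where 3.68% of all tested genes were lower without overlap. For DPSC against MSCEPO, *Ltb* (-0.67) and *Tnfrsf12a* (-0.51) had an unadjusted p under 0.05, where 2.48% of all tested genes did, and *Cd40* (-0.34) was lower in DPSC without overlap, where 1.95% of all tested genes were.

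The rest of the family and its signaling genes were read from lists of other ligands, other receptors, adaptors with the death complex, and regulators. In sham against NT 0 of the tested genes of these lists were called. In MSC against NT 9 of 14 other receptors rose, where 11.0% of all tested genes were called higher. In all 14 the difference was above 0 with a median of 0.77, against a median of 0.00 over all tested genes. *Tnfrsf21*, which encodes death receptor 6, rose by 0.89 (adjusted p = 0.00211) and *Ltbr*, the receptor of the lymphotoxin heterotrimer, by 0.92 (adjusted p = 0.00303). *Ngfr*, the low-affinity neurotrophin receptor, rose by 0.54 and *Tnfrsf9*, a costimulatory receptor of T cells, by 1.09 (adjusted p = 0.00335 and 0.00429). Of 8 other ligands 3 rose, and they were *Tnfsf13* (0.79, adjusted p = 0.00547) and *Tnfsf13b* (0.93, adjusted p = 0.0153), which encode the B cell survival factors APRIL and BAFF, and *Tnfsf8* (1.00, adjusted p = 0.0427), the ligand of CD30.

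Downstream, 6 of 11 adaptors and death complex genes rose in MSC over NT, where 11.0% of all tested genes were called higher. These 6 included both arms of the pathway. *Casp8*, the caspase that death receptors activate, was 1.18 higher (adjusted p = 0.0260), while *Birc3*, an inhibitor of apoptosis induced by NF-κB, was 1.87 higher (adjusted p = 0.0117). *Cflar*, which encodes the caspase-8 inhibitor c-FLIP, was 1.05 higher (adjusted p = 0.0164), and *Traf1*, a TNF receptor adaptor, was 1.31 higher (adjusted p = 0.0220). Of the 6 regulators, *Adam17*, which encodes the protease that sheds TNF and its receptors, rose by 0.64 (adjusted p = 0.0193). *Tnfaip3*, which encodes the NF-κB inhibitor A20, fell, with a difference of -1.03 (adjusted p = 0.0186).

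In the fit of all libraries the same lists held fewer calls in the other cell groups. In MSCEPO against NT 5 of 14 other receptors rose, where 5.83% of all tested genes were called higher. The receptors were led by *Ltbr* (1.03, adjusted p = 0.00163) and *Tnfrsf21* (0.82, adjusted p = 0.00335), with *Tnfrsf9* (0.91) and *Ngfr* (0.43) also called. Of 8 other ligands 1 rose, *Tnfsf13* (0.69, adjusted p = 0.0133), and limma called 0 of 11 adaptors. An unadjusted p under 0.05 was found for 5 of these adaptors, and the share of all tested genes at that level is not given here. In DPSC against NT 3 of 14 other receptors rose, where 1.43% of all tested genes were called higher. The 3 were *Ltbr* (0.91, adjusted p = 0.0110), *Ngfr* (0.51, adjusted p = 0.0147) and *Tnfrsf21* (0.59, adjusted p = 0.0456), and 0 ligands or adaptors rose. *Tnfaip3* was lower than in NT in these groups as well, with differences of -1.61 in MSCEPO (adjusted p = 0.00229) and -1.17 in DPSC (adjusted p = 0.0348). In the 3 comparisons with sham 0 genes of these lists were called. The comparisons with NT share the NT libraries. A fit without both MSC replicate 1 and MSCEPO replicate 3 was chosen after the data were seen. It called 4235 of the 15424 tested genes in MSCEPO over NT and 3439 in MSC over NT, in either direction. The genes that rose in MSCEPO were then 9 of 14 other receptors, 3 of 8 other ligands and 6 of 11 adaptors. In MSC they were 10 of 14, 2 of 8 and 4 of 11. Of the 6 regulators 1 then rose and 2 fell in each of these groups.

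**Figure D5:**
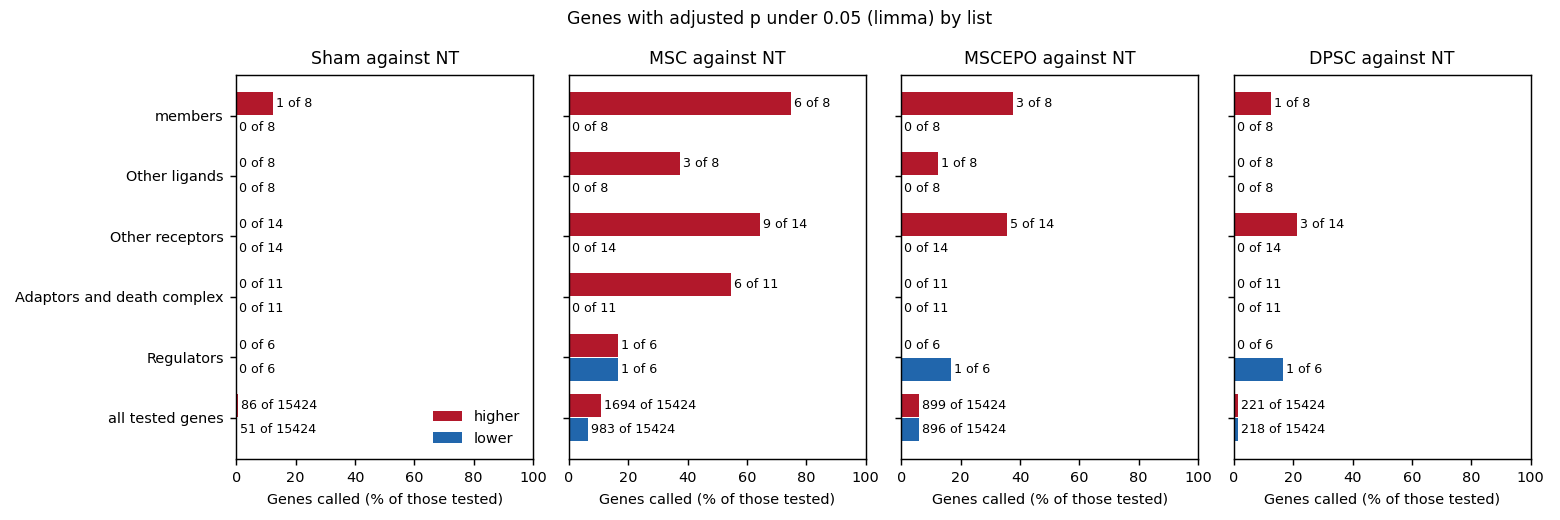
Bars give the share of tested genes (percent) with an adjusted p under 0.05, higher in red and lower in blue, for the members, 4 further lists and all tested genes in each comparison with NT. The members and the other receptors had the longest bars in the MSC panel, 6 of 8 and 9 of 14, and 1 of 6 regulators was lower in each cell group.

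Genes with the profile most like each tested member were found by the root mean square difference between rlog values centred on the gene's own mean, over the 15 libraries. For *Tnfrsf1a* it was *Pdpn* (0.14 log2 units, against a spread of *Tnfrsf1a* about its own mean of 0.56), followed by *Rab31* and *Shisa5*. For *Cd40* it was *Psme2* (0.095), an interferon-inducible proteasome activator subunit, followed by *Ifngr1* and *Galnt3*. For *Fas* the nearest were *Abcg3l1*, *Cyp4v3* and *Nmi* (0.17 to 0.18), and for *Tnfrsf12a* they were *Phlda3*, *Ddr1* and *B4galt5* (0.15 to 0.18). *Tnfrsf1b* was nearest to *Zc3h12d*, *Cenpf* and *Fcmr* (0.16 to 0.17), and *Ltb* to *Cdh17*, *Rnf125* and *RGD1305184* (0.20 to 0.21). *Tnfsf10* was nearest to *Itgb1*, *Serpinb9* and *Ppic* (0.19 to 0.20), and *Faslg* to *Rap2c*, *Pole2* and *Dpep2* (0.076 to 0.094). These are descriptions over 15 libraries that share their groups.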

How the data were processed

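RNA-Seq was read from 15 whole-retina libraries of 5 groups, assigned by the sample labels. The authors ran Salmon 1.1.0 on the rat Rnor_6.0 transcripts, tximport for gene-level summaries and then the DESeq2 (version 3.2 per the labels) rlog transformation. The deposited values are therefore the authors' log2 (rlog) values, with library size removed and shrinkage toward the gene's mean, and depth cannot be read from them. In a table of the whole series, 15 columns of per-sample values were a copy (0 values differed) and were not used.

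The genes whose rlog values averaged 3.32 or more were tested with limma 3.58.1 in R 4.3.3, with 5 group means in one fit, variances moderated with a trend on the mean, and Benjamini-Hochberg adjustment in each of 10 comparisons. Fitted intervals are 95% intervals. The test was written for values on this scale and was tested on simulated data. Array weights were computed gene by gene, because the default method stopped before convergence. Members, lists and the rule for named genes (all members, and of each list up to 4 called genes with the smallest adjusted p in a comparison) were chosen with earlier results of these data known. *Tnfsf11*, *Tnfrsf10b* and *Traf5* were not found by symbol. A gene of the adaptor list is not reported here and was left out of its counts.

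Alternatives were a fold threshold of 2, no filter, a filter in every library, the 12 libraries without DPSC, the 2 groups compared alone, a replicate block, median centring, quantile normalization, array weights and each library left out. Leaving out MSC replicate 1 with MSCEPO replicate 3 was added after the data were seen.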

Additional observations from a re-analysis of the deposited data

How the results depend on the processing

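The number of members called in sham against NT moved from 1 to 0 with the fold threshold of 2, with no filter and with quantile normalization, to 4 with the 2 groups alone and to 3 with array weights, and it was 0 with each library left out. The genes called among all 15424 tested moved too, from 137 to 1333 with the 2 groups alone and to 2375 with array weights. They were 45 with the fold threshold, 78 with quantile normalization and 27 to 46 with a library left out. With no filter 103 of all listed genes were called. In MSC against NT the number of members was 3 with the 2 groups alone (2798 genes) and 3 to 7 with a library left out (1350 to 2721 genes). With the fold threshold of 2 it was 4 in MSC against NT (1033 genes) and 2 in MSCEPO against NT (551 genes). Array weights, which give far libraries less weight, gave 7 members in MSCEPO against NT (6066 of all tested genes), 2 in DPSC against NT (3678 genes), 6 in MSC against sham (2796 genes), 3 in MSCEPO against sham (1105 genes), 3 lower in DPSC against MSC (1838 genes) and 1 lower in DPSC against MSCEPO (4 genes). MSC against NT then had 7 members and 7618 genes. Leaving out both MSC replicate 1 and MSCEPO replicate 3 was chosen after the data were seen. The counts then were 6 in MSCEPO against NT (4235 genes), as in MSC against NT (3439 genes). They were 1 each in MSCEPO against sham (32 genes) and DPSC against MSCEPO (1 gene), *Ltb* in both. *Ltb* had passed the level filter through MSC and MSCEPO. With a library left out the counts were 0 to 2 in DPSC against NT (100 to 462 genes) and 2 to 4 in MSCEPO against NT (801 to 2998 genes). In MSC against sham they were 0 to 3 (0 to 698 genes). The cause of these moves was not tested. Signs turned for *Faslg* with quantile normalization in MSCEPO against NT (-0.15) and against sham (-0.000203), for *Ltb* in DPSC against NT (-0.00895), and for *Tnfsf10* in MSC against sham without MSC replicate 1, alone or with MSCEPO replicate 3 (-0.023 in both, and -0.023 to 0.91 with each library left out). None of these was a called value. Over all 10 comparisons 47 of 1214 single-gene values under an alternative turned sign, and 0 of them were called in either fit. Members above 0 went from 2 to 1 of 8 in DPSC against MSCEPO with median centring or quantile normalization, and from 7 to 6 in DPSC against sham with quantile normalization. Deviations of the 30 same-numbered pairs correlated at -0.44 to 0.65, with 12 over 0.1. Of the 15 libraries 6 correlated best with a library of their own number. The highest value was that of MSCEPO and DPSC replicate 3 (0.65). MSC replicate 3 correlated with DPSC replicate 3 at 0.48 and with NT replicate 3 at 0.43. Sham and DPSC replicate 3 gave -0.44. A structure shared by some same-numbered libraries was not tested. The replicate block gave 2 members called in DPSC against NT in place of 1, *Fas* being added (493 genes in place of 439). It changed the member count in no other comparison. Of the single-gene values under an alternative in the 4 comparisons with NT, MSC and MSCEPO against sham, and 2 values between cell groups, 695 kept their direction and side of the threshold, 33 passed it newly, 35 no longer passed and 5 changed sign. Shrinkage of low values limits what can be seen for *Tnf*, *Lta* and *Ltb*, and 3 libraries a group limit all comparisons.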
